A study of Drosophila melanogaster with 18 samples.

Results

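Whole young adults of *Drosophila melanogaster* were compared with embryos by RNA sequencing of whole individuals of the w1118 strain, which carries a mutation of the *white* gene in all groups. The comparison rests on 4 of the 18 libraries of the series, 2 of whole adults aged 24 h and 2 of embryos aged 18 h, chosen by their column names in a table of read counts per gene. The 2 libraries of wandering L3 larvae entered the same fit as the intermediate stage, and the other 12 libraries, of adult heads, bodies and gonads, were used only to show where in the adult a gene was counted. No group carried a transgene or a treatment, the labels do not give the sex of the whole adults or say whether the libraries came from separate cultures, and the study's text gives a shorter adult age in a single place. P-values therefore measure only the spread between these libraries, which may be technical. The study's notes give each stage a Seq label of its own. If these labels mark separate sequencing sets, stage and set cannot be told apart.

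At the embryonic age sampled, organogenesis is largely complete in the fly: axons have reached their targets, muscles are attached and the epidermis secretes the cuticle of the coming larva. The larva grows mainly by enlarging polyploid cells and stores protein in its fat body. During metamorphosis most larval tissues are replaced by tissues grown from imaginal cells, among them flight muscle, compound eyes and the adult epidermis, while the nervous system is rewired. A freshly emerged adult carries all of these organs, and its germ line is maturing.

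The adult libraries held 47578577 and 45662046 counts, the embryo libraries 87676051 and 87410646 counts, and the larval libraries 50372933 and 46623979 counts. Levels are given as CPM, read counts relative to library size scaled by trimmed-mean factors, for each library in turn, and compare a gene between stages, not different genes with each other. Replicate libraries correlated at 0.981 in adults, 0.989 in embryos and 0.964 in larvae across genes (log2 CPM, 12335 genes, which are not independent), so the larval libraries were the least alike. Reads were counted over whole gene spans, so 3487 genes lying wholly within others have no counts in any library, and many long genes, *Gad1*, *para*, *Nrg* and *trpl* among them, keep only the reads outside a shared stretch. The stage labels were checked against marker lists. Of 10 genes of the early embryo, 5 could be tested, and these had at most 15.9 CPM in an embryo library, with 0.393 and 0.0868 CPM for the pair-rule gene *ftz*. *sna* and *slam* were nonetheless called higher in embryos than in adults and larvae, and *sna*, a mesoderm gene, had 0 and 0.0396 CPM in adults, 12.6 and 7.96 CPM in embryos and 2.39 and 2.61 CPM in larvae. Of 6 tested genes of the late embryo, 5 were called lower in adults and 1, *obst-A*, was called higher. The late epidermal gene *Osi6* had 1.84 and 2.42 CPM in adults and 73.9 and 104 CPM in embryos. Adults carried the yolk protein gene *Yp2* (673 and 409.8 CPM in the adult libraries, against 0.202 and 0.26 CPM in the embryo libraries) together with 15 tested genes of the male accessory gland, so genes of the organs of either sex were counted. RNA of the larval storage protein genes *Lsp1beta* (105 and 170.0 CPM in adults, 0.169 and 0.206 CPM in embryos and 32750 and 60249 CPM in larvae) and *Lsp2* was still counted in adults. The labelled stages therefore carried most of their own markers. The maternal RNA of *bcd*, the anterior determinant, was nevertheless higher in embryos, at 1.57 and 0.952 CPM in the adult libraries, against 20.1 and 49.8 CPM in the embryo libraries, and lay well above its larval level of 0.366 and 0.095 CPM.

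Of 12335 genes tested, 3667 (29.7%) were called higher and 2347 (19%) lower in adults than in embryos. A call required an adjusted p under 0.05 in edgeR's quasi-likelihood test (Benjamini-Hochberg) together with a change of 1 or more on the log2 scale. The median log2 fold change over all genes tested was 0.11, and the shares of higher and lower calls among all genes are the background against which each list is set. Since whole animals were sequenced, fewer cells of a type and less RNA per cell cannot be told apart. Of the genes called higher in adults that had reads in the adult parts, 2151 of 3664 (58.7%) had their highest mean in the testis libraries, against 3187 of 12300 (25.9%) of all genes tested. Those libraries also had the highest mean for 14 of 15 tested accessory gland genes, so they do not stand for the testis alone. Of those called lower in adults, 949 of 2325 (40.8%) were highest in heads, against 3369 of 12300 (27.4%) of all genes. The plot of gene lists shows which functions fell on either side.

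**Figure D1:**
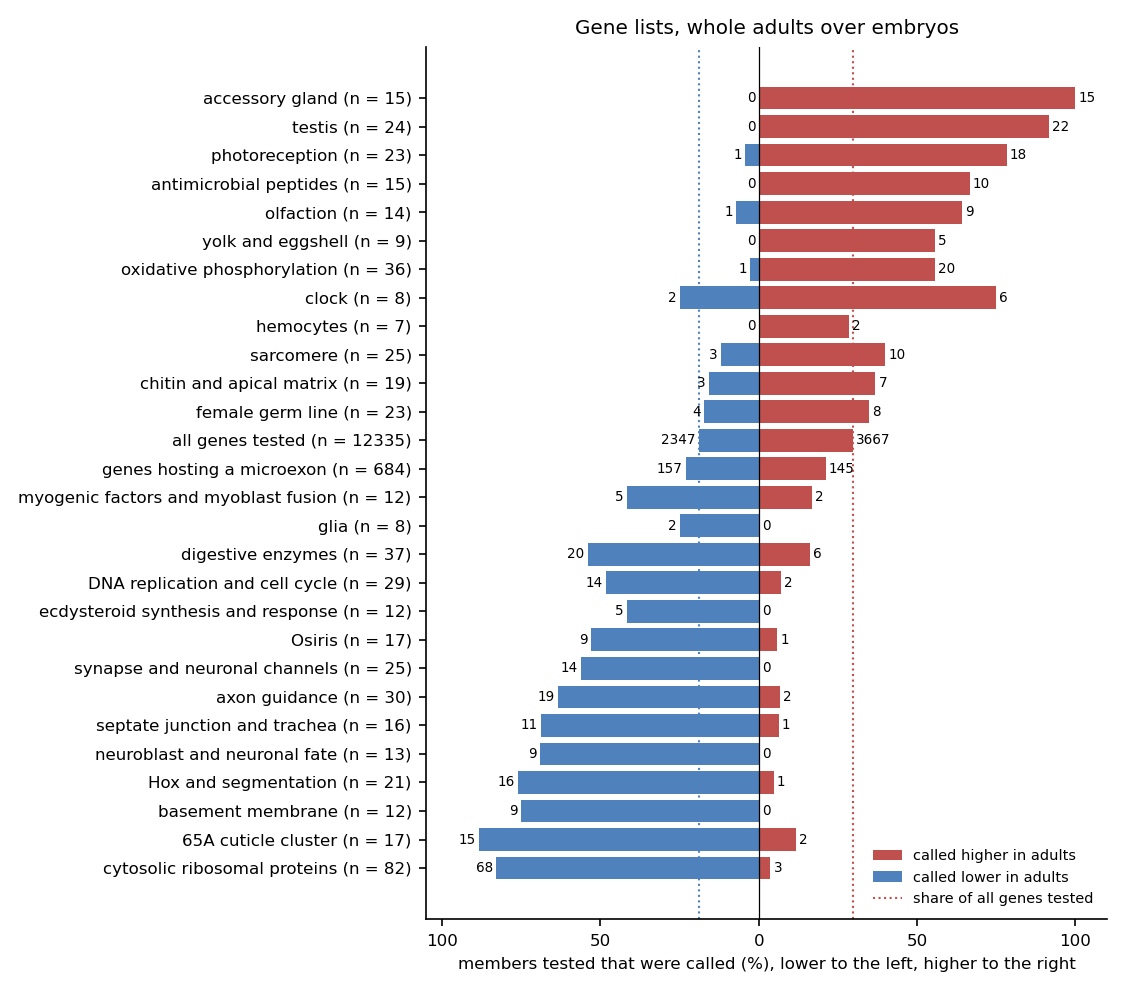
Share of the tested members of each gene list that were called higher (red, right) or lower (blue, left) in whole adults than in embryos, with the number of genes at the end of each bar and the share of all genes tested as dotted lines (29.7% higher, 19% lower). Lists of testis, accessory gland and photoreception genes lie at the top, and ribosomal proteins, the 65A cuticle cluster and basement membrane genes at the bottom.

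The largest rises belonged to male reproduction. All 15 tested genes of the accessory gland, whose secreted proteins enter the female with the sperm, and 22 of 24 testis genes were called higher in adults, with a median log2 fold change of 10.19 and 8.71 when genes without reads in embryos are set at the bound that 3 counts per library allow. The sex peptide gene *SP*, which changes the behaviour of mated females, had 28.9 and 25.2 CPM in the adult libraries, against 0 and 0 CPM in the embryo libraries, at least 816-fold higher in adults (adjusted p = 6.86e-05). The sperm tail gene *dj* had 138 and 180.1 CPM in the adult libraries, against 0 and 0 CPM in the embryo libraries, at least 4802-fold higher, and the sperm chromatin gene *ProtB* 42 and 50.2 CPM in the adult libraries, against 0 and 0 CPM in the embryo libraries, at least 1391-fold higher. Of the 10 genes with the largest fitted change among those with a mean of 100 CPM or more in adults, all were without reads in both embryo libraries, and *S-Lap3*, a sperm leucyl aminopeptidase, was the highest of them by fold at 447 and 557 CPM in the adult libraries, against 0 and 0 CPM in the embryo libraries, at least 15156-fold higher. The others were *CG12860*, *CG3124*, *CG4691*, *Mst84Db*, *Mst57Da*, *dj*, *Obp56g*, *ocn* and *Mst98Cb*, each at least 4498-fold higher by the same bound. In the libraries of adult parts, 9 of the 10 had their highest mean in the testis libraries and *Obp56g* in male bodies. Male bodies also counted such genes, with means of 495 CPM for *dj* and 936 CPM for *Mst57Da*. In the testis libraries these 2 genes had means of 1372 and 2512 CPM. The accessory gland genes, too, were mostly highest in the testis libraries (14 of 15), so a highest mean there does not single out the testis.

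On the female side, *Yp1*, *Yp2* and *Yp3*, which code for the yolk proteins, rose. *Yp1* had 106 and 48.2 CPM in the adult libraries, against 0.191 and 0.0543 CPM in the embryo libraries (log2 fold change 9.28 ± 0.91, adjusted p = 0.000203). *Yp3* had 83.6 and 148 CPM in the adult libraries, against 0.933 and 0.391 CPM in the embryo libraries (log2 fold change 7.45 ± 0.55, adjusted p = 5.89e-05). Of the 9 tested genes of the yolk and eggshell list, 5 were called higher in adults and none lower. Of the 22 listed yolk and eggshell genes only 9 passed the filter on low counts, and of the others 6 lie wholly within overlapping genes and have no value, while 7 had at most 15 counts in any library, such as *Cp19* with 9 and 2 counts in adults, against 0 in both embryo libraries. Of 23 genes of the female germ line, 8 were called higher and 4 lower in adults, shares near those of all genes tested (29.7% and 19%). The median log2 fold change of this list was 0.09, against 0.11 over all genes, so the list did not rise as a group. *osk*, which anchors the germ plasm, had 9.56 and 10.5 CPM in the adult libraries, against 0.0225 and 0.141 CPM in the embryo libraries (log2 fold change 6.90 ± 0.83, adjusted p = 0.000525). *orb*, a translational regulator of the germ line, had 167 and 214 CPM in the adult libraries, against 6.81 and 6.12 CPM in the embryo libraries (log2 fold change 4.88 ± 0.25, adjusted p = 2.04e-05). The 4 lower genes were *bcd*, *tor*, *swa* and *spn-E*. *tor*, the receptor that patterns the ends of the embryo, had 1.78 and 2.58 CPM in the adult libraries, against 12.9 and 24.2 CPM in the embryo libraries (log2 fold change -3.09 ± 0.41, adjusted p = 0.00077). The *spn-E* call is lost without either adult library or without embryo library 2 (adjusted p = 0.111, 0.084 and 0.131).

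The adult eye was the other clear gain. Of 23 photoreception genes tested, 18 were called higher in adults and 1 lower, with a median log2 fold change of 5.12. *ninaE*, the opsin of the outer photoreceptors, had 1709 and 1410.0 CPM in the adult libraries, against 0.157 and 0.217 CPM in the embryo libraries (log2 fold change 13.01 ± 0.38, adjusted p = 1.18e-05). *trp*, the channel opened by light, had 500.4 and 481 CPM in the adult libraries, against 0.259 and 0.0651 CPM in the embryo libraries (log2 fold change 11.56 ± 0.71, adjusted p = 3.25e-05). Both were all but uncounted in the embryos and wandering larvae, and no pupae were sampled. Other steps of the light response were already counted in embryos: *norpA*, the phospholipase C of the cascade, had 299.9 and 237 CPM in the adult libraries, against 64.7 and 60.7 CPM in the embryo libraries (log2 fold change 2.099 ± 0.35, adjusted p = 0.00208). *Ggamma30A*, a G protein subunit, did not reach the fold required, at 499 and 428 CPM in adults and 322 and 294 CPM in embryos (log2 fold change 0.59 ± 0.20, adjusted p = 0.042). The gene for the visual alpha subunit, *Galphaq*, was the lower one, at 23.9 and 26.9 CPM in the adult libraries, against 61.6 and 56.8 CPM in the embryo libraries (log2 fold change -1.22 ± 0.17, adjusted p = 0.000886). The list thus ran from genes hardly counted in embryos to genes counted there above the adult level.

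Of 14 olfaction genes, 9 were called higher in adults, led by odorant-binding proteins, and 1 was called lower. *Obp19d* had 94 and 149 CPM in the adult libraries, against 0.0899 and 0.0434 CPM in the embryo libraries (log2 fold change 10.79 ± 0.48, adjusted p = 1.43e-05). *lush*, which binds the male pheromone, had 13.9 and 14.6 CPM in the adult libraries, against 0.045 and 0.217 CPM in the embryo libraries (log2 fold change 6.74 ± 0.67, adjusted p = 0.00021). The lower gene was *Obp56d*, another odorant-binding protein, with 30.9 and 23.7 CPM in the adult libraries, against 71.7 and 70.4 CPM in the embryo libraries (log2 fold change -1.38 ± 0.39, adjusted p = 0.0202). Its call is lost without any 1 of the adult or embryo libraries (adjusted p = 0.0631, 0.113, 0.0801 and 0.0745). Of 8 genes of the circadian clock, 6 were called higher and 2 (*Pdp1* and *cwo*) lower. The light receptor gene *cry* had 75.6 and 72.7 CPM in the adult libraries, against 0.36 and 0.358 CPM in the embryo libraries (log2 fold change 7.68 ± 0.30, adjusted p = 1.18e-05), and *tim*, the partner of *per*, had 112 and 148 CPM in the adult libraries, against 7.08 and 6.37 CPM in the embryo libraries (log2 fold change 4.27 ± 0.22, adjusted p = 2.04e-05). *per* had 24.2 and 29.2 CPM in the adult libraries, against 3.06 and 2.29 CPM in the embryo libraries (log2 fold change 3.32 ± 0.28, adjusted p = 0.000105). The 6 genes called higher were *per*, *tim*, *Clk*, *cyc*, *vri* and *cry*. The *Pdp1* call is lost without adult library 2 (log2 fold change -0.99, adjusted p = 0.0486) and that of *cwo* without embryo library 1 (log2 fold change -0.91, adjusted p = 0.0379, short of the fold required).

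Muscle genes did not move as a group, and the widest changes in either direction were those of single isoforms. Of 25 sarcomere genes, 10 were called higher and 3 lower in adults, with a median log2 fold change of 0.61, and leaving out either embryo library lowered the higher calls to 6 and the lower calls to 2. *Act88F*, the actin of the indirect flight muscle, had 17045 and 15159 CPM in the adult libraries, against 0.382 and 1.17 CPM in the embryo libraries (log2 fold change 14.33 ± 1.04, adjusted p = 5.64e-05). *Act79B*, an actin of adult thoracic muscle, had 9791 and 10085 CPM in the adult libraries, against 4.27 and 3.87 CPM in the embryo libraries (log2 fold change 11.25 ± 0.95, adjusted p = 0.000104). *fln*, the flightin of flight muscle thick filaments, had 187 and 76 CPM in the adult libraries, against 0.169 and 0.206 CPM in the embryo libraries (log2 fold change 9.44 ± 0.62, adjusted p = 3.82e-05). These 3 genes were at or below 10.5 CPM in every embryonic and larval library. *Strn-Mlck*, a kinase of the titin family found in flight muscle, had 3436 and 4344 CPM in the adult libraries, against 203 and 167 CPM in the embryo libraries (log2 fold change 4.39 ± 0.49, adjusted p = 0.000346). The opposite pattern was seen for *Act57B*, an actin of embryonic and larval muscle, with 3636 and 3144 CPM in the adult libraries, against 15949 and 14459 CPM in the embryo libraries (log2 fold change -2.17 ± 0.51, adjusted p = 0.00945), a call lost without either embryo library (adjusted p = 0.0713 and 0.0614). The troponin C genes were divided in the same manner: *TpnC47D* had 113 and 136 CPM in the adult libraries, against 786 and 769 CPM in the embryo libraries (log2 fold change -2.64 ± 0.44, adjusted p = 0.00221), whereas *TpnC41C* had 681 and 572 CPM in the adult libraries, against 11.5 and 10.6 CPM in the embryo libraries (log2 fold change 5.82 ± 0.26, adjusted p = 1.49e-05). *Tm2*, a tropomyosin, was not called, at 4141 and 3676 CPM in adults and 3685 and 3527 CPM in embryos. Muscle genes differed between the 2 larval libraries (*Act57B* 7294 and 18245 CPM in larval libraries 1 and 2), and without either of them the list had 11 higher and 3 lower calls.

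Of 36 nuclear genes for oxidative phosphorylation, 20 were called higher in adults (2 when tested against a log2 fold change of 1) and 1 (*COX7A*, not called without adult library 2) lower, with a median log2 fold change of 1.06, just above the fold required. *blw*, the alpha subunit of the ATP synthase, had 8616 and 7362 CPM in the adult libraries, against 2828 and 2536 CPM in the embryo libraries (log2 fold change 1.57 ± 0.30, adjusted p = 0.00374). *SdhA*, of complex II, had 950.2 and 887 CPM in the adult libraries, against 342 and 302 CPM in the embryo libraries (log2 fold change 1.51 ± 0.26, adjusted p = 0.00246). The number of higher calls depended on single libraries, at 9 without adult library 1, 8 without embryo library 1 and 6 without embryo library 2, with list medians of 0.90, 1.09 and 0.998. *blw* was 1 of those that fell under the call without either embryo library, and *SdhA* kept it in every case. Antimicrobial peptide genes were counted at low levels, and 10 of 15 were called higher in adults and none lower. *Drs*, an antifungal peptide, had 95.8 and 89 CPM in the adult libraries, against 1.01 and 2.41 CPM in the embryo libraries (log2 fold change 5.75 ± 0.44, adjusted p = 7.21e-05), and was as high in larvae (117 and 97.2 CPM).

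The genes lost from embryos to adults were led by the cuticle. Of 17 tested genes of the 65A cluster of cuticle proteins on chromosome arm 3L, 15 were called lower in adults and 2 higher, with a median log2 fold change of -8.53 when genes without reads in adults are set at their bound. *Lcp65Af* had 0 and 0 CPM in the adult libraries, against 459 and 458 CPM in the embryo libraries, at least 7542-fold lower in adults (adjusted p = 1.18e-05). *Lcp65Ag1* had 0.559 and 0.258 CPM in the adult libraries, against 1868 and 1868 CPM in the embryo libraries (log2 fold change -12.16 ± 0.50, adjusted p = 1.35e-05). *Lcp65Ac* had 2.79 and 1.92 CPM in the adult libraries, against 726 and 669.7 CPM in the embryo libraries (log2 fold change -8.21 ± 0.34, adjusted p = 1.35e-05). The *Lcp65Ag* and *Lcp65Ab* genes are near-identical copies, so their reads may be divided between them. The 2 exceptions were *Acp65Aa*, named as the adult cuticle gene of the cluster, with 107 and 101 CPM in the adult libraries, against 7.33 and 7.27 CPM in the embryo libraries (log2 fold change 3.84 ± 0.23, adjusted p = 3.11e-05), and *Cpr65Au*, with 82.4 and 64.7 CPM in the adult libraries, against 1.35 and 1.18 CPM in the embryo libraries (log2 fold change 5.86 ± 0.24, adjusted p = 1.35e-05). Neighbouring genes of a single cluster thus changed in opposite directions between embryos and adults. Against larvae, 9 of the 17 were called higher and 6 lower in embryos, and 2 were called higher and 15 lower in adults.

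Of the 10 genes with the largest fitted fall among those with a mean of 100 CPM or more in embryos, 4 code for cuticle proteins of known families, *Lcp65Af* of the 65A cluster and *Cpr65Ea*, *TwdlB* and *TwdlM* outside it, and the others are *CG32453*, *CG14454*, *CG13217*, *CG43390*, *CG10953* and *CG30457*, for which no role is given here. *TwdlM*, of the Tweedle family, had 0.414 and 0.0595 CPM in the adult libraries, against 6198 and 5902 CPM in the embryo libraries (log2 fold change -14.64 ± 1.01, adjusted p = 4.7e-05). *CG10953* had 0.0414 and 0.218 CPM in the adult libraries, against 7265 and 5492 CPM in the embryo libraries (log2 fold change -15.55 ± 0.79, adjusted p = 2.02e-05). Of 17 Osiris genes, a clustered insect family of epidermal and tracheal membrane proteins, 9 were called lower and 1, *Osi13*, higher, at 0.517 and 0.377 CPM in the adult libraries, against 0 and 0 CPM in the embryo libraries (at least 13.5-fold). *Osi7* had 0.248 and 0.872 CPM in the adult libraries, against 43.4 and 63.4 CPM in the embryo libraries (log2 fold change -6.56 ± 0.61, adjusted p = 0.000164). *Osi14* had 0.269 and 0.0396 CPM in the adult libraries, against 22.9 and 18.6 CPM in the embryo libraries (log2 fold change -7.06 ± 0.78, adjusted p = 0.000354). Without embryo library 1 or 2, the higher Osiris genes numbered 3 and 2.

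Of 19 genes for chitin and the apical matrix, 7 were called higher and 3 lower in adults, shares near those of all genes tested, with 4, 4 and 3 higher without adult library 2, embryo library 1 and embryo library 2. *obst-A*, a chitin-binding protein, had 384 and 316 CPM in the adult libraries, against 66.6 and 68.8 CPM in the embryo libraries (log2 fold change 2.37 ± 0.43, adjusted p = 0.00315). *knk*, needed for ordered chitin layers, had 13.9 and 12.1 CPM in the adult libraries, against 2.55 and 2.95 CPM in the embryo libraries (log2 fold change 2.24 ± 0.28, adjusted p = 0.000608). *dyl*, a zona pellucida protein of the epidermal surface, had 0.642 and 0.773 CPM in the adult libraries, against 16.7 and 19.7 CPM in the embryo libraries (log2 fold change -4.68 ± 0.32, adjusted p = 4.28e-05). Its fall was the largest of the 3 lower genes, the others being *nyo* and *tyn*. The *nyo* call is lost without adult library 2 (log2 fold change -3.23, adjusted p = 0.0528) and that of *tyn* without adult library 1 (log2 fold change -1.43, adjusted p = 0.0538).

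Matrix and epithelial junction genes were higher in embryos. Of 12 basement membrane genes, 9 were called lower in adults, with a median log2 fold change of -1.60. The collagen IV chains *Col4a1* (705 and 777 CPM in the adult libraries, against 5392 and 4313 CPM in the embryo libraries, log2 fold change -2.71 ± 0.32, adjusted p = 0.000449) and *vkg* (390.2 and 438 CPM in the adult libraries, against 2912 and 2300.4 CPM in the embryo libraries, log2 fold change -2.65 ± 0.33, adjusted p = 0.000553) fell together. *Ndg*, the nidogen that links collagen with laminin, had 27.7 and 20.2 CPM in the adult libraries, against 638 and 562 CPM in the embryo libraries (log2 fold change -4.65 ± 0.27, adjusted p = 2.63e-05). No member was called higher, but *wb*, a laminin alpha chain, lay just under the fold required with 38 and 53.8 CPM in the adult libraries, against 25.7 and 20.3 CPM in the embryo libraries (adjusted p = 0.009), and was called higher when adult library 1 or embryo library 1 was left out (log2 fold change 1.21, adjusted p = 0.0139 and log2 fold change 1.17, adjusted p = 0.0263). Of 16 genes of septate junctions and trachea, 11 were called lower and 1, the FGF receptor gene *btl*, higher. *cora*, a scaffold of the septate junction, had 163 and 237 CPM in the adult libraries, against 1052 and 799 CPM in the embryo libraries (log2 fold change -2.21 ± 0.33, adjusted p = 0.00139). *btl* had 12.6 and 18.3 CPM in the adult libraries, against 4.07 and 2.76 CPM in the embryo libraries (log2 fold change 2.18 ± 0.32, adjusted p = 0.0013).

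Regulators of body plan were lower in adults as well. Of 21 Hox and segmentation genes, 16 were called lower and 1 higher, and all 8 Hox genes were among the lower ones. *lab* had 3.29 and 2.95 CPM in the adult libraries, against 33.7 and 21.8 CPM in the embryo libraries (log2 fold change -3.15 ± 0.39, adjusted p = 0.000545), *Abd-B* 11.5 and 13.5 CPM in the adult libraries, against 69 and 53.2 CPM in the embryo libraries (log2 fold change -2.29 ± 0.27, adjusted p = 0.000496), and *Antp* 17 and 17.4 CPM in the adult libraries, against 71.6 and 63 CPM in the embryo libraries (log2 fold change -1.97 ± 0.17, adjusted p = 0.000121). These 3 genes are given as examples of the called Hox genes. The call of *Scr* is lost when any of the 4 libraries is left out (adjusted p = 0.124 and 0.114 without an adult library, 0.144 and 0.0506 without an embryo library), and that of *pb* without either adult library (adjusted p = 0.0505 and 0.0671). The higher gene, *prd*, a pair-rule gene that also acts in the male accessory gland, had 9.9971 and 12.2 CPM in the adult libraries, against 0.697 and 0.38 CPM in the embryo libraries (log2 fold change 4.36 ± 0.42, adjusted p = 0.000195). Among the adult parts *prd* was highest in the testis libraries, which also counted accessory gland genes. Of 12 genes of muscle specification and myoblast fusion, 5 were called lower and 2 (*lmd* and *twi*) higher. *bin*, the visceral mesoderm factor biniou, had 1.18 and 1.72 CPM in the adult libraries, against 18 and 10.027 CPM in the embryo libraries (log2 fold change -3.27 ± 0.41, adjusted p = 0.00063). *sns*, the receptor for myoblast fusion, had 21.5 and 20.9 CPM in the adult libraries, against 68.6 and 47.7 CPM in the embryo libraries (log2 fold change -1.46 ± 0.22, adjusted p = 0.00146). Without adult library 1 the lower calls numbered 3, and the higher calls were 1 without either adult library or without embryo library 1.

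Of 13 tested genes of neuroblast and neuronal fate, 9 were called lower in adults and none higher. *wor*, a snail-family gene of neural stem cells, had 0.0414 and 0.0991 CPM in the adult libraries, against 3.16 and 3.67 CPM in the embryo libraries (log2 fold change -5.55 ± 0.57, adjusted p = 0.000244). *nerfin-1*, which keeps young neurons from reverting, had 0.248 and 0.0198 CPM in the adult libraries, against 8.11 and 7.68 CPM in the embryo libraries (log2 fold change -5.88 ± 0.68, adjusted p = 0.000424). Of 30 axon guidance genes, 19 were called lower and 2 higher, with a median log2 fold change of -1.27. The guidance cue *NetA* had 6.13 and 7.51 CPM in the adult libraries, against 47.7 and 36.5 CPM in the embryo libraries (log2 fold change -2.63 ± 0.23, adjusted p = 0.000135), the repellent cue *sli* 64.7 and 84.9 CPM in the adult libraries, against 243 and 192 CPM in the embryo libraries (log2 fold change -1.54 ± 0.23, adjusted p = 0.00126), the receptor *robo3* 20.3 and 14.5 CPM in the adult libraries, against 99.5 and 76.4 CPM in the embryo libraries (log2 fold change -2.33 ± 0.25, adjusted p = 0.0003), and the adhesion molecule *Nrg* 154 and 162 CPM in the adult libraries, against 875 and 759.7 CPM in the embryo libraries (log2 fold change -2.37 ± 0.21, adjusted p = 0.000141). The 2 genes called higher were the adhesion molecule *Fas1*, with 464 and 542 CPM in the adult libraries, against 158 and 158 CPM in the embryo libraries (log2 fold change 1.67 ± 0.20, adjusted p = 0.000464), and the metalloprotease *tok*, with 213 and 159 CPM in the adult libraries, against 66.3 and 49.6 CPM in the embryo libraries (log2 fold change 1.68 ± 0.26, adjusted p = 0.00169). Of 25 synapse and channel genes, 14 were called lower, none higher and 11 not called. Of 8 glial genes, 2 were called lower, *gcm* and *wrapper*, and the *wrapper* call is lost without adult library 1 or either embryo library (adjusted p = 0.111, 0.0729 and 0.0566). *gcm*, the switch for glial fate, had 0.29 and 0.258 CPM in the adult libraries, against 1.85 and 1.62 CPM in the embryo libraries (log2 fold change -2.66 ± 0.46, adjusted p = 0.00271).

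**Figure D2:**
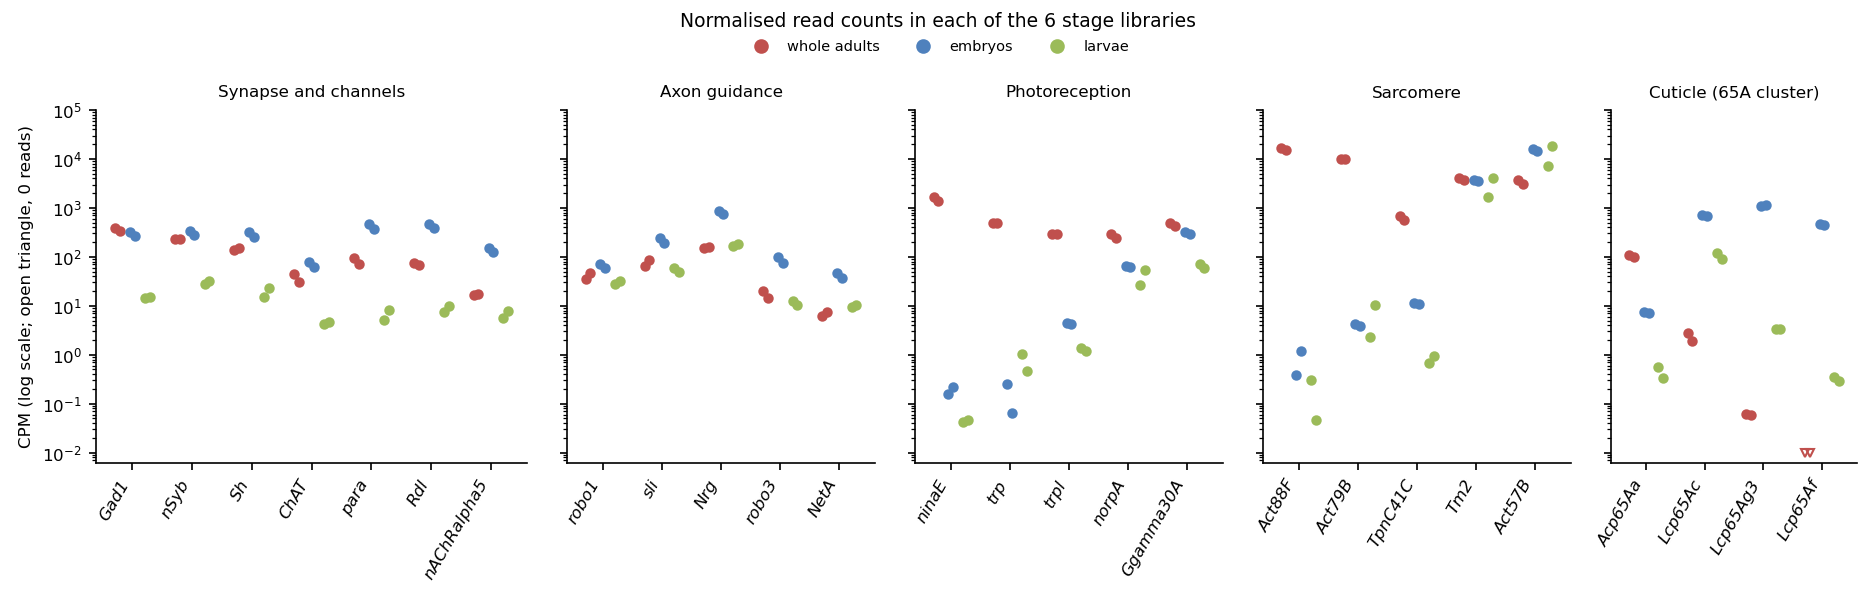
Normalised read counts (CPM, log scale) of selected genes in each of the 6 stage libraries, with whole adults in red, embryos in blue, larvae in green and open triangles for libraries without reads. The synapse genes shown were higher in adults and embryos than in larvae, with *para*, *Rdl* and *nAChRalpha5* called lower in adults than in embryos. Guidance genes were highest in embryos, *ninaE*, *Act88F* and *Act79B* were high in adults alone, and *Lcp65Af* had no reads in either adult library.

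Of 82 cytosolic ribosomal protein genes tested, 68 were called lower and 3 higher in adults, with a median log2 fold change of -1.22. The median stayed between -1.53 and -0.95 under every alternative tried, including other scalings, close to the fold required, while the number of lower calls was 34 without adult library 2, 26 without embryo library 1 and 23 without embryo library 2, and 6 when tested against a log2 fold change of 1. *RpL29* had 422 and 266 CPM in the adult libraries, against 976 and 1188 CPM in the embryo libraries (log2 fold change -1.65 ± 0.33, adjusted p = 0.00463). The 3 higher genes, *RpL10Aa*, *RpS28a* and *RpS19b*, are copies whose highest mean in the adult parts was in testes, and the *RpS28a* call is lost without embryo library 1 (log2 fold change 5.39, adjusted p = 0.0577). *RpL10Aa* had 23.3 and 27.5 CPM in the adult libraries, against 0 and 0 CPM in the embryo libraries, at least 767-fold higher (adjusted p = 8.06e-05).

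Of 29 genes of DNA replication and the cell cycle, 14 were called lower and 2 higher in adults, and all 29 had their highest mean in ovaries among the adult parts. The median log2 fold change of the list was -0.54. It ran from -0.94 to 0.006 over the alternatives tried, so the fall of the list as a group did not hold under each of them. *CycB3*, a mitotic cyclin, had 13.9 and 14.7 CPM in the adult libraries, against 95 and 159 CPM in the embryo libraries (log2 fold change -3.15 ± 0.31, adjusted p = 0.000198). *thr*, a partner of the protease separase, had 4.93 and 4.5 CPM in the adult libraries, against 33.9 and 59.998 CPM in the embryo libraries (log2 fold change -3.32 ± 0.31, adjusted p = 0.000171). *aurA*, the Aurora A kinase, had 15.4 and 11.8 CPM in the adult libraries, against 1.55 and 1.35 CPM in the embryo libraries (log2 fold change 3.23 ± 0.30, adjusted p = 0.000151). Of the replicative helicase genes, *Mcm6* and *Mcm7* were called lower, whereas *Mcm2*, *Mcm3*, *Mcm5* and *dpa* were not called. *Mcm2* had 13.4 and 14 CPM in adults and 6.23 and 9.17 CPM in embryos (log2 fold change 0.83 ± 0.24, adjusted p = 0.0222). The *Mcm6* call is lost without adult library 1 (log2 fold change -1.12, adjusted p = 0.0505) or embryo library 2 (log2 fold change -0.82, adjusted p = 0.0298, short of the fold required). Without embryo library 2, *Mcm2*, *Mcm3* and *Mcm5* are called higher (adjusted p = 0.0177, 0.0282 and 0.0224). At *CycB3*, *thr*, *CycB* and *tor*, embryo library 2 lay above embryo library 1, as it did at *bcd*. Without embryo library 2 the higher calls of the list numbered 8.

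Among 37 digestive enzymes, 20 were called lower in adults, 6 higher and 11 not called, and the called genes divided mostly by enzyme family. The 6 higher genes were amylases and maltases, such as *Mal-A7* with 148 and 140.3 CPM in the adult libraries, against 0.225 and 0.336 CPM in the embryo libraries (log2 fold change 8.99 ± 1.28, adjusted p = 0.00107). The 20 lower genes were trypsins, Jonah proteases and the maltase *Mal-A3*, such as *zetaTry* with 15.7 and 5.53 CPM in the adult libraries, against 156 and 168 CPM in the embryo libraries (log2 fold change -3.93 ± 0.48, adjusted p = 0.000545) and *Jon25Bii* with 0.393 and 0.912 CPM in the adult libraries, against 24.2 and 108 CPM in the embryo libraries (log2 fold change -6.65 ± 0.86, adjusted p = 0.000691). Lower calls also depended on single libraries. Those of *Jon44E*, *Jon99Cii* and *Jon99Ciii* are lost without either adult library or without embryo library 2, at log2 fold changes between -3.66 and -1.99. The higher calls numbered 3 without either embryo library. Of 12 genes of ecdysteroid synthesis and response, 5 were called lower and none higher, other than 1 without embryo library 2. The nuclear receptor gene *ftz-f1*, which marks the fall of ecdysone before cuticle formation, had 29.2 and 32.9 CPM in the adult libraries, against 261 and 264 CPM in the embryo libraries (log2 fold change -3.08 ± 0.33, adjusted p = 0.000312), and the receptor gene *EcR* had 31.9 and 30.5 CPM in the adult libraries, against 70.015 and 66.1 CPM in the embryo libraries (log2 fold change -1.13 ± 0.16, adjusted p = 0.000981).

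To find which embryo genes came back, an embryo gene was defined as a gene called higher in embryos than in larvae, and it was taken as returned when it was also called higher in adults than in larvae. A returned gene that was called lower in adults than in embryos was counted as returned in part, and any other as returned in full. Both contrasts use the same 2 larval libraries, so the classes describe the 3 stages and no test of their overlap is given. The median log2 fold change over all genes was -0.31 in embryos over larvae and -0.02 in adults over larvae, and DESeq2's size factors raised both, to -0.11 and 0.18, and 961 genes returned in full and 389 in part under that scaling. Of all genes tested, 2381 (19.3%) were embryo genes, and 2851 (23.1%) were called higher in adults than in larvae. Of the 2381 embryo genes, 770 (32.3%) returned in full, 345 (14.5%) returned in part and 1266 (53.2%) did not return. Of those returned in full, 177 were called higher still in adults than in embryos, and of those that did not return, 975 were called lower in adults than in embryos.

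**Figure D3:**
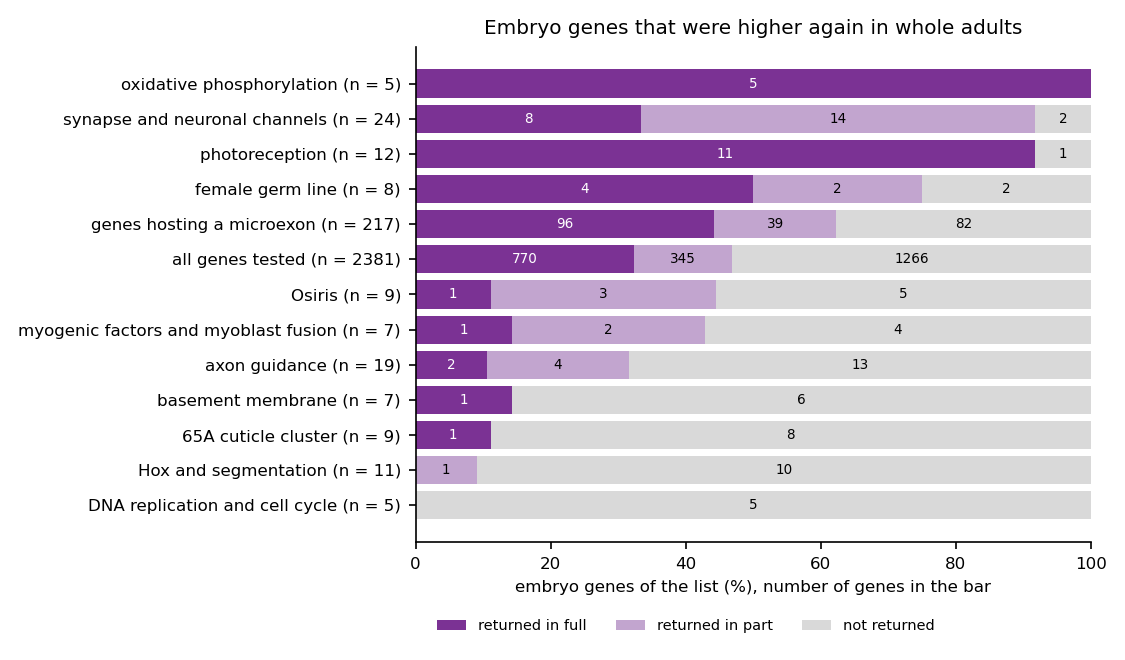
Share of the embryo genes of each list (5 or more embryo genes) that returned in full (dark), in part (light) or not (grey) in whole adults, with the number of genes in each bar. Of all 2381 embryo genes, 770 returned in full and 345 in part, while 22 of 24 synapse and channel genes and 1 of 11 Hox and segmentation genes returned.

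Genes for the working synapse returned nearly without exception. Of 25 tested, 24 were embryo genes and 22 of these returned, 8 in full and 14 in part, and 22 or 23 returned when any library was left out, although without embryo library 1 the numbers in full and in part were 12 and 10. Among those that returned in full, *Gad1*, which makes the inhibitory transmitter GABA, had 388 and 335 CPM in adults, 322 and 265 CPM in embryos and 14.7 and 15.4 CPM in larvae. Its log2 fold change was 4.29 ± 0.23 in embryos over larvae (adjusted p = 3.09e-05) and 4.59 ± 0.23 in adults over larvae (adjusted p = 5.72e-05). *ChAT*, which makes acetylcholine, had 44.2 and 30.2 CPM in adults, 78.4 and 62.8 CPM in embryos and 4.19 and 4.7 CPM in larvae. *nSyb*, the vesicle SNARE of the neuronal synapse, had 235 and 227 CPM in adults, 338 and 279.6 CPM in embryos and 28.4 and 31.7 CPM in larvae. At *ChAT* a call lower in adults than in embryos appears without adult library 1 (log2 fold change -1.25, adjusted p = 0.013) or embryo library 2 (log2 fold change -1.09, adjusted p = 0.0292), which puts it among the genes returned in part. At all 3 genes the adult and embryo libraries lay several-fold above the larval ones. The potassium channel genes *Sh* and *Shab* returned in full as well, *Sh* with 139 and 152 CPM in adults, 315 and 250.0 CPM in embryos and 15.4 and 22.8 CPM in larvae, although *Sh* moves to those returned in part without embryo library 2 (log2 fold change -1.13, adjusted p = 0.0304 in adults over embryos). *Csp* and *Ace* were the 2 embryo genes of the list that did not return, and neither counts as an embryo gene without embryo library 1.

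The transmitter receptors tested and the sodium and calcium channels returned in part. *para*, the voltage-gated sodium channel, had 93.8 and 71.5 CPM in adults, 462 and 368 CPM in embryos and 5.08 and 8.39 CPM in larvae, with a log2 fold change of -2.33 ± 0.30 in adults over embryos (adjusted p = 0.000726) and 3.62 ± 0.32 in adults over larvae (adjusted p = 0.00031). *Rdl*, the GABA receptor subunit, had 73.8 and 69.5 CPM in adults, 460.5 and 393 CPM in embryos and 7.53 and 9.91 CPM in larvae, and its change in adults over embryos was -2.57 ± 0.22 (adjusted p = 0.000112). *nAChRalpha5*, a subunit of the acetylcholine receptor, had 16.5 and 17.4 CPM in adults, 151 and 128 CPM in embryos and 5.66 and 7.84 CPM in larvae, with -3.04 ± 0.22 (adjusted p = 5.89e-05), the largest fall of the list. *cac*, the calcium channel of the presynapse, had 34.3 and 39.5 CPM in adults, 156 and 128 CPM in embryos and 6.93 and 14.6 CPM in larvae (log2 fold change -1.94 ± 0.35, adjusted p = 0.00301 in adults over embryos). In these genes adults lay between embryos and larvae. All 25 tested genes of the list had their highest mean in heads of either sex among the adult parts.

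The study used the series to catalogue microexons, exons of 3 to 30 nucleotides. It states that most of the data came from unpublished projects of its laboratory. From each of 3 returned synapse genes 1 microexon is shown here because these genes carry the pattern of return, written 5′ to 3′ as the study's table gives them. The sequence of *cac* lies at X:11960075-11960080, that of *unc-13* at 4:885454-885462 and that of *slo* at 3R:24700706-24700729 (dm6), and each coincides with an annotated coding exon. The gene counts do not show whether a microexon was included.
cac: cacgat
unc-13: gttctcaag
slo: aagacgatgaatactcgttgtcaa
*unc-13*, which primes synaptic vesicles, returned in full with 137 and 157 CPM in adults, 249.6 and 220.1 CPM in embryos and 51.5 and 71.5 CPM in larvae. *slo*, a potassium channel opened by calcium, returned in part with 129.7 and 182 CPM in adults, 356 and 284 CPM in embryos and 21.4 and 14.7 CPM in larvae, and its lower call against embryos (log2 fold change -1.04 ± 0.28, adjusted p = 0.0158) is lost without adult library 1 (log2 fold change -0.83, adjusted p = 0.102) or embryo library 1 (log2 fold change -0.87, adjusted p = 0.0914). Of 684 tested genes that host a microexon in the study's table, 217 (31.7%) were embryo genes, against 19.3% of all genes tested. Of the 684, 96 (14%) returned in full, against 6.24% of all genes, 39 (5.7%) returned in part, against 2.8%, and 82 (12%) did not return, against 10.3%. The study identified its microexons from reads of these same libraries, so the host list is not independent of the counts. No conclusion is drawn from the difference in shares.

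Guidance genes contrasted with the synapse. Of 19 embryo genes for axon guidance, 2 returned in full, 4 in part and 13 did not, and between 4 (without embryo library 1) and 7 (without adult library 1) returned in either way when a library was left out. *robo1*, the receptor for Slit, had 35.8 and 46.5 CPM in adults, 72.9 and 60.041 CPM in embryos and 27.3 and 32.1 CPM in larvae. *Nrg* had 154 and 162 CPM in adults, 875 and 759.7 CPM in embryos and 163 and 185 CPM in larvae. *NetB*, a netrin, had 32 and 24.7 CPM in adults, 102 and 79.7 CPM in embryos and 15.4 and 15.4 CPM in larvae. None of these 3 was called higher in adults than in larvae. Those that returned in part were *Lar*, *beat-Ia*, *side* and *Con*. *Lar* is no longer called higher in adults than in larvae without adult library 2, either embryo library or larval library 1 (adjusted p = 0.296, 0.0732, 0.0707 and 0.117), nor is *beat-Ia* without adult library 2 (log2 fold change 0.87, adjusted p = 0.0974). *Fas1* returned in full with 464 and 542 CPM in adults, 158 and 158 CPM in embryos and 76.6 and 67.9 CPM in larvae. *Ptp99A*, the other gene returned in full, loses its place without larval library 1 or embryo library 1.

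Of 12 photoreception genes that counted as embryo genes, 11 returned in full. Several of them were near the limit of detection in embryos, as *ninaE* was, and its place and that of *ninaC* depend on single libraries. For *trpl*, a light-gated channel, the levels were 289 and 294 CPM in adults, 4.37 and 4.22 CPM in embryos and 1.36 and 1.21 CPM in larvae, and for *Gbeta76C*, the eye's G protein beta subunit, 283 and 258 CPM in adults, 4.6 and 4.16 CPM in embryos and 0.688 and 0.737 CPM in larvae. *Rh5*, an opsin also used by the larval eye, had 42.5 and 40.6 CPM in adults, 10.5 and 8.84 CPM in embryos and 3.29 and 4.4 CPM in larvae. *Ggamma30A* had 499 and 428 CPM in adults, 322 and 294 CPM in embryos and 70.2 and 59.1 CPM in larvae. *Rh5* and *Ggamma30A* were thus higher in both embryo libraries than in either larval library, while *trpl* was under 5 CPM in embryos and larvae. Both glial embryo genes returned in full, the glutamate transporter *Eaat1* with 318 and 263 CPM in adults, 213 and 203 CPM in embryos and 40.3 and 28.4 CPM in larvae and the pump subunit *nrv2* with 259 and 339 CPM in adults, 374 and 353 CPM in embryos and 117 and 89.4 CPM in larvae.

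Genes of body plan and matrix mostly did not return. Of 11 embryo genes for Hox and segmentation only *pb*, the Hox gene of the adult mouthparts, was called as returned, in part, and its place is lost without either adult library or without larval library 2. *abd-A* had 33.5 and 33.8 CPM in adults, 140.2 and 107 CPM in embryos and 47.6 and 49.7 CPM in larvae. *Ubx* had 26.8 and 20.3 CPM in adults, 60.4 and 47.6 CPM in embryos and 17.1 and 15.7 CPM in larvae. Their adult levels lay near the larval ones. Of 7 basement membrane embryo genes 1, *Mp*, a collagen of the XV/XVIII type, returned in full with 129 and 149 CPM in adults, 129 and 102 CPM in embryos and 32.9 and 52.8 CPM in larvae. *Col4a1* had 464 and 663 CPM in larvae, beside its adult and embryonic levels given above, and was not called higher in adults than in larvae (log2 fold change 0.39 ± 0.30, adjusted p = 0.296). The 5 embryo genes of the cell cycle list (*CycB*, *CycB3*, *BubR1*, *dup* and *thr*) did not return, and *BubR1* does not count as an embryo gene without embryo library 2 or larval library 2.

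The 10 genes returned in full with the largest smaller change over larvae, among genes with a mean of 20 CPM or more in both stages, were headed by the cuticle protein genes *Cpr62Bb* and *Cpr50Cb*. *Cpr62Bb* had 37.3 and 66.8 CPM in adults, 91.9 and 81 CPM in embryos and 0.043 and 0.119 CPM in larvae, with log2 fold changes of 10.05 ± 0.52 in embryos over larvae (adjusted p = 3.05e-05) and 9.32 ± 0.51 in adults over larvae (adjusted p = 7.2e-05). Without adult library 2 it moves to the genes returned in part (log2 fold change -1.22, adjusted p = 0.0277 in adults over embryos). *Cpr50Cb* had 86.9 and 56.7 CPM in adults, 139 and 128 CPM in embryos and 0.194 and 0.0475 CPM in larvae. Both were nearly without reads in wandering larvae. The others were *CG34375*, *CG15080*, *CG10562*, the glycine transporter gene *GlyT*, *CG6484*, *CG7203*, the cytochrome P450 gene *Cyp6a20* and the transporter gene *bumpel*. *CG7203* was higher still in adults, at 2213 and 3142 CPM in adults, 449 and 323 CPM in embryos and 16 and 15.8 CPM in larvae (log2 fold change 2.79 ± 0.31, adjusted p = 0.000347 in adults over embryos). *GlyT* had 25.4 and 20.9 CPM in adults, 31.8 and 20.5 CPM in embryos and 0.817 and 0.879 CPM in larvae. *bumpel* had 39.1 and 49.8 CPM in adults, 38.2 and 34.5 CPM in embryos and 1.74 and 1.78 CPM in larvae. All 10 were higher in both adult and both embryo libraries than in either larval library, which follows from the rule that picked them. The chitinase gene *Cht5* (514 and 1011 CPM in adults, 375 and 297 CPM in embryos and 38 and 20.1 CPM in larvae) and the deacetylase-family gene *Cda5* (365 and 484 CPM in adults, 272 and 214 CPM in embryos and 14.7 and 33.6 CPM in larvae) returned in full as well, as did *Acp65Aa* in the 65A cluster.

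The 10 genes highest in embryos over both other stages, with a mean of 100 CPM or more in embryos, included 5 genes of 2 cuticle protein families. These are *TwdlB*, *TwdlM*, *TwdlN* and *TwdlL* of the Tweedle family, and *Cpr65Ea*. *TwdlN* had 0.559 and 0.535 CPM in adults, 9362 and 7273 CPM in embryos and 0.194 and 1.14 CPM in larvae. *TwdlL* had 0.124 and 0.119 CPM in adults, 1605 and 1517 CPM in embryos and 0.129 and 0.261 CPM in larvae. *Cpr65Ea* had reads in embryos alone (0 and 0 CPM in adults, 108 and 155 CPM in embryos and 0 and 0 CPM in larvae), at least 1941-fold higher in embryos than in larvae and at least 2169-fold lower in adults than in embryos. The remaining genes were *CG43390*, *CG14453*, *CG4229*, *CG15023* and *CG10598*. By the rule above *CG15023* counts as returned in part, with 0.103 and 0.119 CPM in adults, 917 and 793 CPM in embryos and 0 and 0 CPM in larvae. Embryos were thus the only stage of the 3 with more than 2 CPM of any of the 10.

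The separate libraries of adult parts, which took no part in these classes, were used to show in which part each returned gene was highest. A highest part did not always carry the whole-adult level. *Cpr50Cb* had 86.9 and 56.7 CPM in whole adults, but its highest part mean was 3.99 CPM, in female heads. *CG34375* had 142 and 155 CPM in whole adults, but its highest part mean was 4.18 CPM, in male heads. The cause of this gap was not tested. Of 770 genes returned in full, 528 (68.6%) had their highest mean CPM in heads of either sex, and so had 278 of 345 (80.6%) returned in part. Among genes that did not return, the share was 591 of 1253 (47.2%), and among all genes tested it was 3369 of 12300 (27.4%). Ovaries had the highest mean for 8.18% of the genes returned in full and 4.64% of those returned in part, against 21.2% of those that did not return and 33.2% of all genes. The parts were sequenced with longer, stranded reads than the stages. Apart from these values of *Cpr50Cb* and *CG34375*, the parts were compared only with each other.

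**Figure D4:**
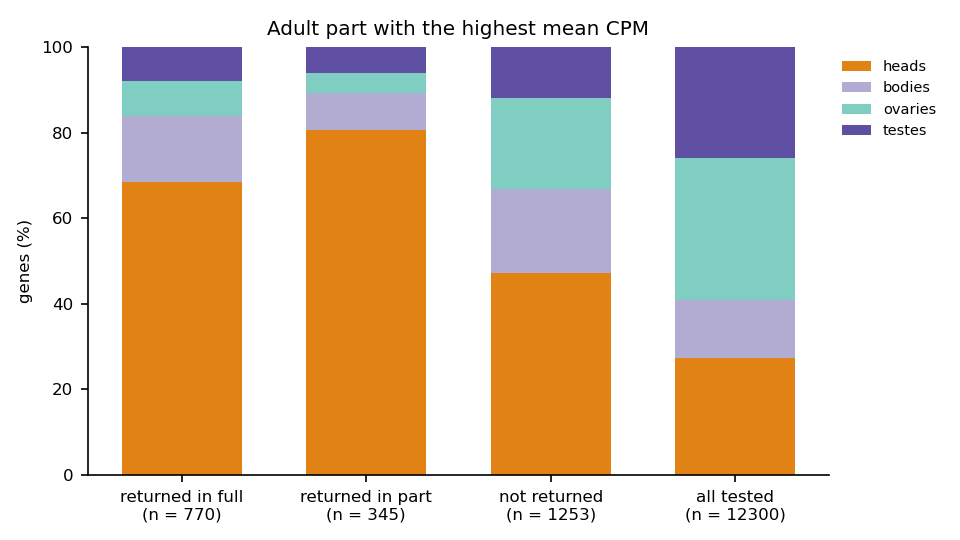
Share of genes whose highest mean CPM among the adult parts was in heads, bodies, ovaries or testes, for embryo genes returned in full (n = 770), returned in part (n = 345), not returned (n = 1253) and for all genes tested (n = 12300). Heads were highest for 68.6%, 80.6%, 47.2% and 27.4% of them.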

How the data were processed

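RNA of w1118 *Drosophila melanogaster* was sequenced as 18 libraries, of which the 6 of whole adults, embryos and larvae entered the tests. Per the study's methods the authors trimmed reads with cutadapt 1.15 and mapped them with TopHat2 2.1.1 to the dm6 genome, and they deposited raw read counts per gene for 17825 genes. The counting tool is not given in the sources used here, and the length of each gene equals its whole span. Symbols were found for 17742 gene IDs, and 7 of 650 list entries without a match were not analysed here. The table of microexons was used only for sequences, positions and host genes.

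The count test was that of edgeR 4.0.16, run in R 4.3.3 (TMM scaling, filterByExpr with a minimum count of 10, a quasi-likelihood test with 1 mean per stage). A gene was called at a Benjamini-Hochberg adjusted p under 0.05 over the 12335 genes tested and an absolute log2 fold change of at least 1. Errors after ± are approximate standard errors, taken as the absolute log2 fold change divided by the square root of the test's F statistic. The scripts were tested on simulated data. Folds against a stage without reads are lower bounds from 3 counts per library, and cover counting error only.

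Genes named outside the lists were the 10 of largest change per direction (mean of at least 100 CPM in the higher stage), the 10 returned in full with the largest smaller change over larvae (at least 20 CPM in both stages) and the 10 highest in embryos over both other stages (at least 100 CPM). Within lists, called members of largest and smallest change were named, and any further member was picked with its values already known. The comparison, its members and the lists were chosen with earlier results of these data known. The highest mean among the 12 libraries of adult parts was taken for each gene, with no test. Alternatives were other scalings, the DESeq2 1.42.0 Wald test, other filters, fold limits, thinning, a replicate block and leaving out each library.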

Additional observations from a re-analysis of the deposited data

How the results depend on the processing

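With at least 10 counts required in every library, which removes genes without reads in a stage, 2031 genes were called higher in adults than in embryos, against 3667. Tested against a log2 fold change of 1, 1506 genes were called lower and 149 returned in part, and with no minimum fold 557 returned in part. The other counts over all genes stayed within 1.5 times of those reported (73 of 77 counts). Leaving out a library gave 3173 to 3888 genes higher, 1940 to 2501 lower, 2118 to 2659 embryo genes, 711 to 868 returned in full and 258 to 389 in part. The replicate numbers did not pair the samples, since deviations of libraries of the same number correlated at 0.008 between adults and embryos, 0.12 between adults and larvae and -0.05 between embryos and larvae. With the replicate block, 3593 genes were called higher and 2314 lower, 2378 were embryo genes, 762 returned in full and 339 in part. Tested against a log2 fold change of 1, calls in lists of modest change were also fewer, at 7 lower for the synapse, 6 higher for the sarcomere and 4 higher for chitin and the apical matrix. Among calls per gene list, 838 of 928 stayed within 1.5 times, and no named gene changed direction.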
